A study of Oryza sativa with 6 samples.

Results

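Roots of the rice variety Prasanna were compared between 1 array from seedlings without nitrogen and 2 arrays from seedlings with supplemented nitrogen, 3 of the 6 arrays in all. The members were taken by variety and treatment from the labels, and the genes were ordered by how far the array without nitrogen lay from both supplemented arrays. The other 3 arrays hold the variety Varadan. The seedlings of all groups germinated for 7 days and then grew on Yoshida solution, a nutrient medium for rice, with nitrogen for 10 days. They were then moved to the same solution either with or without nitrogen. The labels give the age as 14 days, which is less than these periods together, and they give neither the nitrogen source nor the time spent without it. The design text speaks of 2 replicates of each kind; a second Prasanna array without nitrogen was not analysed here. Nothing says that the supplemented pair came from separate cultures, so the p-values below measure the spread between 2 samples, which may be technical.

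Rice roots take up nitrogen as ammonium and as nitrate. Nitrate enters through low-affinity and high-affinity transporters, and is reduced to nitrite by nitrate reductase and to ammonium by nitrite reductase, which in roots draws its electrons from ferredoxin. Ammonium is joined to glutamate by glutamine synthetase, and glutamate synthase turns the product into glutamate. Nitrate itself is also a signal: proteins of the NLP group switch on reduction and assimilation genes, while repressors of the NIGT1 and LBD37 to LBD39 groups, known best from Arabidopsis, hold back the transporters used in scarcity.

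Each value is a MAS5 signal on the log2 scale, the standard summary of an Affymetrix probe set on its own array. Values of a gene are given in the order without nitrogen, with nitrogen replicate 1 and with nitrogen replicate 2. A change is the array without nitrogen minus the mean of the supplemented pair, with the standard error (SE) of limma's fit (1 array against 2, with 1 residual degree of freedom). "Rose" and "fell" are kept for probe sets with a limma adjusted p (Benjamini-Hochberg over 34316 probe sets, two-sided) below 0.05. Because the array without nitrogen stands alone, a second rule judged size with no test. A probe set was past the supplemented pair if the array without nitrogen lay at least 1 log2 beyond both of its arrays in 1 direction, by more than they differed from each other. A reading below the 40th percentile of its own array (5.13, 5.07 and 4.91) was not taken as above background, so changes resting on it are given only as a limit, written "at least" for gains and "or lower" for losses. An adjusted p printed beside a limit belongs to limma's fit of the deposited readings, dim ones included, and not to the limit. Signals of different genes come from different probes and are not compared with each other.

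The array without nitrogen stood further from each supplemented array than these stood from each other. Across the 34316 tested probe sets, 8892 differed at least 2-fold between the array without nitrogen and supplemented replicate 1, and 8565 between it and replicate 2, against 5266 within the supplemented pair. Limma called 773 probe sets (2.25% of those tested), of which 424 rose without nitrogen (1.24%) and 349 fell (1.02%). The calls rest on this fit: limma made 0 with the Varadan arrays added to the estimate of spread (3666 at an unadjusted p below 0.05) and 0 with no trend of variance on level (4786 unadjusted). An exact permutation test of 1 array against 2 cannot go below p = 0.333, so none is given. By the size rule 2052 probe sets lay above both supplemented arrays (5.98%) and 2530 below both (7.37%), and all 773 limma calls were among them. With the arrays centred on their medians the change of the median probe set moved by -0.114. The share of limma calls that rose then went from 54.9% to 44.1%, and the share of the size rule's probe sets that were higher from 44.8% to 34.7%.

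Counted by gene, with the brightest probe set of each of 21552 genes, 1339 lay above both supplemented arrays (6.21%) and 1321 below both (6.13%). Of these, 360 rose (1.67% of the tested genes) and 268 fell (1.24%) by limma. These shares are the background for the list and family counts below. Readings below the 40th percentile underlie 372 of the 1321 lower genes and 196 of the 1339 higher ones. With dim readings raised to that percentile 1380 genes were higher and 1066 lower, and the genes at least 3 log2 from the nearer supplemented array went from 44 to 40 above it and from 121 to 38 below it. At the edge of the size rule, OsASB2 (nearest distance 1.0) and OsbZIP37 (1.005) lay just inside on the higher side, and OsSPX2 (0.986) and OsADF11 (0.984) just outside. On the lower side OsHSF6 (-1.016) lay just inside, as did OsTLP2 (Os01g0759100) by a dim reading without nitrogen that sets no distance, and OsCW-ZF3 (-0.999) and OsAGO4b (-0.996) just outside.

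**Figure D1:**
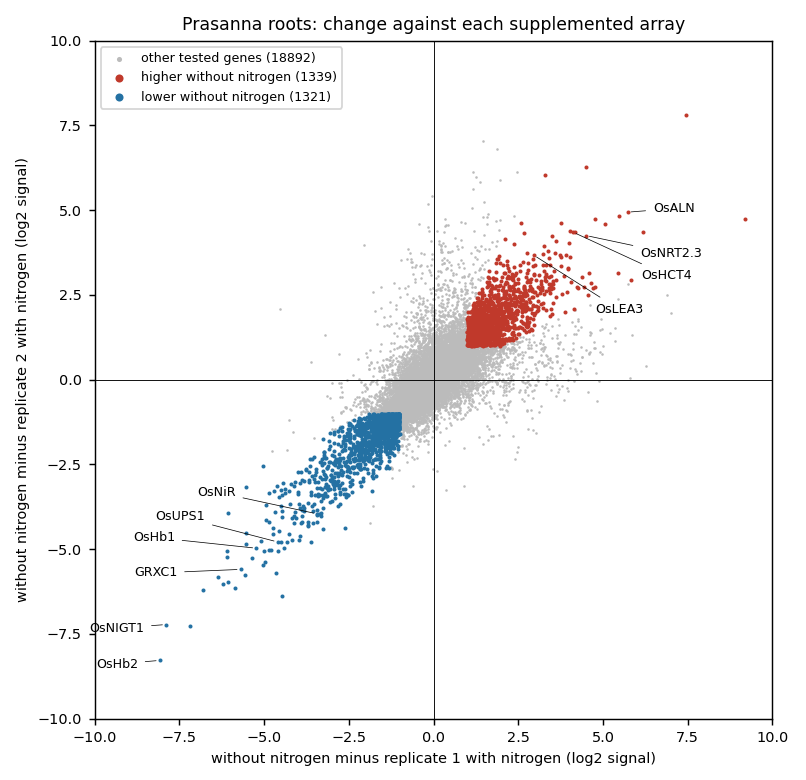
Each point is 1 of 21552 genes; the axes give the log2 signal without nitrogen minus that of supplemented replicate 1 (horizontal) and replicate 2 (vertical). The 1339 red genes lie above both supplemented arrays and the 1321 blue genes below both, and OsHb2 lies furthest to the lower left, 8.18 below the mean of the pair.

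The material was root by its label, and 6 root markers averaged 10.75, 10.95 and 10.67. OsRCc3, a root-specific gene, gave 14.40, 14.45 and 14.31, and the silicon influx transporter OsLsi1 gave 14.68, 14.75 and 14.52. None of 6 root markers was past the supplemented pair. Of 8 photosynthesis genes, markers of green tissue, none was past it either, and their mean was 11.27, 10.95 and 10.24. Among them OsCAB2R gave 13.71, 13.42 and 13.74, so genes of green tissue were read too. These markers do not say how pure the root material was. The mean of 9 cell cycle and replication genes was 9.35, 9.50 and 10.11, and 1 of them, OsORC1 (Os06g0187000; 7.78, 8.96 and 8.97), was below both. The Bacillus spike-in controls, RNAs added from outside the sample, averaged 10.72, 10.73 and 9.66, so replicate 2 stood lower on them. The distance between the 3' and 5' probe sets of the actin control, a sign of RNA integrity, was 5.23, 5.18 and 5.15, and that of a second set of actin controls was 5.43, 5.44 and 4.75. It was 3.06, 3.52 and 3.11 for the Gapdh control and 1.46, 1.54 and 1.39 for the Cyph control. A second set of Gapdh controls gave -3.81, 4.76 and -2.08, and so did not read alike on the 3 arrays. Supplemented replicate 2 is the array that stands apart on the spike-ins, the green tissue genes and the dividing cell genes; the part of these in the results was not tested. In roots taken whole, more RNA per cell and more cells of a type cannot be told apart.

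The largest loss among the tested genes was that of a haemoglobin. OsHb2, a non-symbiotic haemoglobin (Os03g0226200), read 5.73 without nitrogen and 13.81 and 14.02 with it. It fell by 8.18 on the log2 scale (SE 0.23, limma adjusted p = 0.00164), which is 291-fold. OsHb1 (Os03g0233900), its close relative, read 7.18, 12.41 and 12.15 and fell by 5.10 (SE 0.25, limma adjusted p = 0.00356). Both supplemented arrays were bright and close together for both genes. The reading of OsHb2 without nitrogen lay near the 40th percentile of its array (5.13) and below its median (5.81). The SE rests on the bright supplemented pair and does not measure the spread of so low a reading. The size of 291-fold is therefore imprecise. Proteins of this class bind oxygen tightly and remove nitric oxide, which can form while nitrite is reduced. OsHb3 was too dim to be tested.

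Genes of nitrate reduction fell without nitrogen. Among all tested genes 1.24% fell and 1.67% rose. The list of nitrate reduction and its reductant supply had 5 tested genes; 3 fell and none rose, with a median change of -1.88 against -0.045 over all tested genes. The nitrite reductase OsNiR (Os01g0357100) read 9.97, 13.41 and 13.94 and fell by 3.70 (SE 0.28, limma adjusted p = 0.0113). The root ferredoxin-NADP reductase OsRFNR1, which feeds electrons to ferredoxin, read 11.42, 13.58 and 14.07 and fell by 2.4 (SE 0.27, adjusted p = 0.0228). The nitrate reductase OsNIA1 read 12.02, 13.89 and 13.92 and fell by 1.88 (SE 0.20, adjusted p = 0.0214). In these 3 genes the array without nitrogen lay clear of the pair. The supplemented arrays differed by 0.025 for OsNIA1, 0.524 for OsNiR and 0.494 for OsRFNR1, against a median of 0.283 over all tested genes. A second nitrate reductase, OsNR2, read 5.77, 7.91 and 6.79, below both supplemented arrays but with 1.12 between them, and did not pass (change -1.59, SE 0.60). The other root reductase, OsRFNR2, read 11.41, 10.63 and 10.93.

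Of the nitrate transport genes, those that passed the test went the other way. The high-affinity transporter gene OsNRT2.3 (Os01g0704100) read 11.31, 6.82 and 7.06 and rose by 4.37 (SE 0.32, limma adjusted p = 0.0109), or 20.7-fold. OsNRT2.1 read 8.49, 5.83 and 5.75, past the supplemented pair but not past the test (change 2.70, SE 0.47, adjusted p = 0.0546). OsNRT2.2 read 7.93, 5.46 and 6.87. Their partner protein OsNAR2.1, which NRT2 transporters need at the membrane, read 12.61, 9.68 and 11.30 (change 2.12, SE 0.62). For both of these the array without nitrogen was the highest of the 3, and the supplemented arrays differed by more than 1 log2. Among the low-affinity NPF transporters, OsNPF2.4 read 13.11, 11.70 and 11.65 and rose by 1.43 (SE 0.21, adjusted p = 0.0373). OsNRT1.1B, a nitrate transporter that also senses nitrate, lay below both supplemented arrays at 10.62, 11.99 and 13.18 but did not pass (change -1.96, SE 0.48). Over all tested genes 1.67% rose and 1.24% fell, and 6.21% lay above and 6.13% below both. Of the 11 tested nitrate transport genes 2 rose and none fell, and 3 were above and 1 below both supplemented arrays (median change 0.83).

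Ammonium and urea transport stood higher without nitrogen in 5 of 8 tested genes and lower in none, with 2 past the test (median change 1.47). Over all tested genes 6.21% lay above both supplemented arrays and 1.67% rose. OsAMT1.1, an ammonium transporter, read 13.57, 11.91 and 12.14 and rose by 1.54 (SE 0.22, limma adjusted p = 0.0356). OsDUR3, a high-affinity urea transporter, read 10.54, 6.15 and 7.53 and rose by 3.71 (SE 0.59, adjusted p = 0.0431). Both kinds of carrier thus lay above the pair, OsDUR3 with a wider spread within it. The ammonium transporter at Os02g0620500, named OsAMT1.2 here although the reference table's synonyms conflict, read 9.54, 4.1 and 6.4. That is at least 3.80 higher without nitrogen (adjusted p = 0.0885), with 2.3 between the supplemented arrays. OsAMT3.3 read 7.84, 5.07 and 4.1, at least 2.85 higher (adjusted p = 0.104), and OsAMT2.1 read 11.05, 10.02 and 9.29. OsAMT1.3 (13.62, 12.12 and 12.85) was above both arrays but short of the distance the size rule asks, and OsAMT3.2 (12.33, 12.22 and 12.44) lay within the pair.

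Ureides are nitrogen-rich products of purine breakdown, and their genes split. OsALN (Os04g0680400), the allantoinase that opens the ring of allantoin, read 10.72, 4.99 and 5.78 and was at least 5.30 higher without nitrogen (limma adjusted p = 0.0152), the leading gain among named genes. OsUPS1 (Os12g0503000), a ureide permease that carries allantoin, read 9.14, 13.74 and 13.93 and fell by 4.70 (SE 0.22, adjusted p = 0.00337). The enzyme and the carrier of the same compound thus moved in opposite directions. The other 3 genes of ureide breakdown did not pass: OsUricase, which acts before allantoin, read 9.88, 10.73 and 10.93, and OsAAH, which acts after it, read 10.65, 9.93 and 9.84.

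Genes of ammonium assimilation lay on both sides of the supplemented pair. Over all tested genes 1.67% rose and 1.24% fell, and 6.21% lay above and 6.13% below both supplemented arrays. Of 12 tested genes 1 rose and 1 fell, and 1 lay above and 3 below both supplemented arrays (median change -0.62, or -0.54 with dim readings raised to the 40th percentile). OsGS1.1, a cytosolic glutamine synthetase, read 15.01, 13.32 and 13.70 and rose by 1.5 (SE 0.24, limma adjusted p = 0.0467). OsGDH2, a glutamate dehydrogenase, read 10.15, 11.96 and 11.80 and fell by 1.73 (SE 0.23, adjusted p = 0.0292). The asparagine synthetase OsAS1 read 11.09, 12.79 and 13.94 (change -2.28, SE 0.46, adjusted p = 0.0731) and the alanine aminotransferase OsAlaAT 10.81, 11.86 and 12.44 (change -1.33, SE 0.30). Both lay below the pair without passing, and the supplemented arrays themselves differed by 1.15 for OsAS1. The glutamate synthases OsNADH-GOGAT1 (12.02, 12.38 and 13.23) and OsFd-GOGAT (11.23, 11.83 and 11.80) were lowest without nitrogen and within 1 log2 of the nearer supplemented array. Another probe set of OsNADH-GOGAT1 (8.72, 9.74 and 9.82) lay 1.02 log2 below the nearer array, past the size rule, and did not pass limma.

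**Figure D2:**
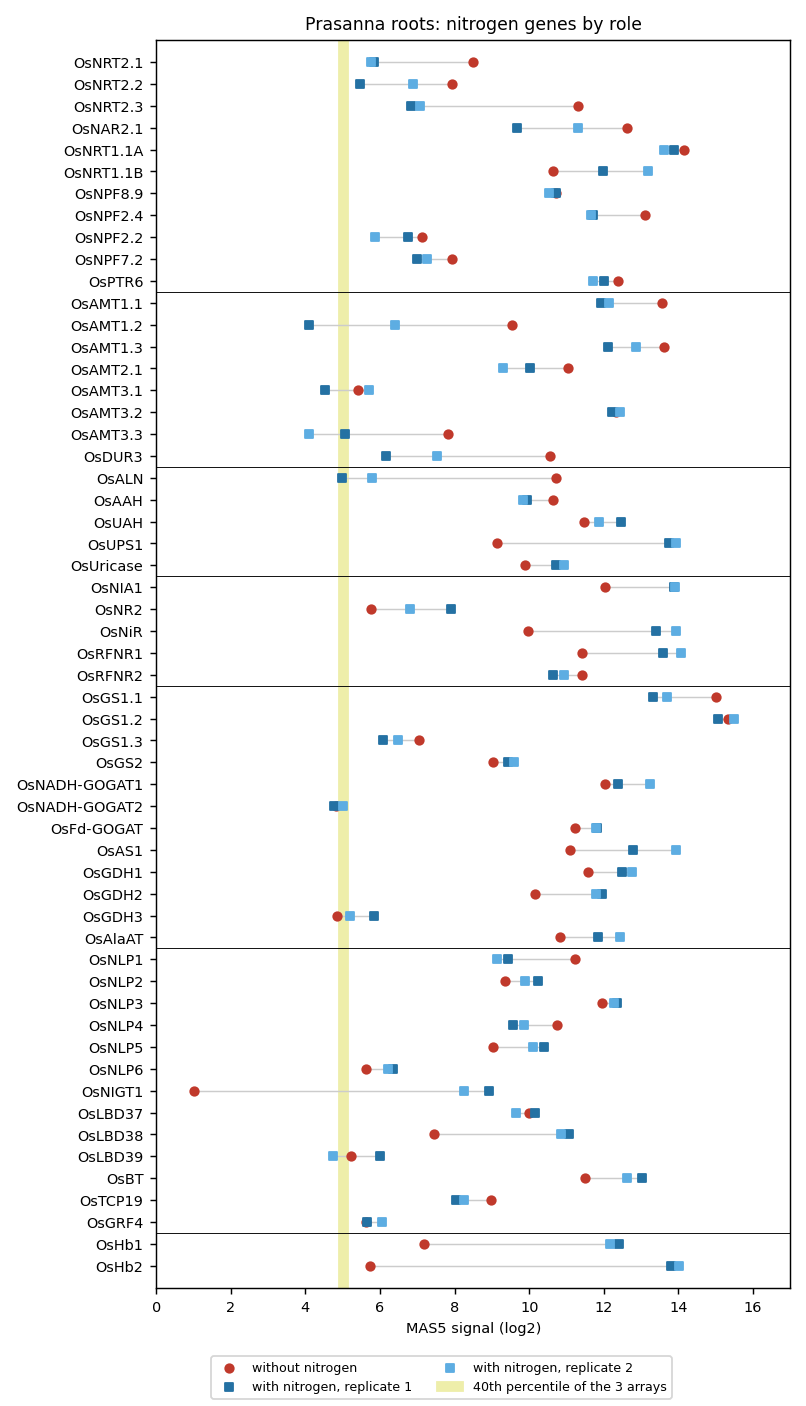
Log2 MAS5 signal of each tested gene of 7 nitrogen lists on the array without nitrogen (red circle) and the 2 supplemented arrays (blue squares); lines divide nitrate transport, ammonium and urea transport, ureides, nitrate reduction, assimilation, regulators and haemoglobins from top to bottom, and the band marks the 40th percentiles. The red circles lie to the right of the squares for OsNRT2.3, OsDUR3 and OsALN and to the left for OsUPS1, OsNiR, OsNIGT1, OsLBD38 and both haemoglobins.

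Regulators of the nitrogen response also split. OsNIGT1 (Os02g0325600), a repressor that nitrate induces, read 1.02 without nitrogen and 8.92 and 8.25 with it. Its reading without nitrogen was below the 40th percentile, so its change is -3.45 or lower (limma adjusted p = 0.0138 for the readings as deposited). OsLBD38 (Os03g0609500), whose Arabidopsis relatives repress nitrogen uptake and assimilation genes, read 7.46, 11.06 and 10.85 and fell by 3.50 (SE 0.26, adjusted p = 0.0113). OsNIGT1 and OsLBD38 were low on the array on which OsNRT2.3 was high, and a link between them was not tested. The other members of the LBD group lay within the pair. OsLBD37 read 9.985, 10.167 and 9.651, and OsLBD39 read 5.212, 5.993 and 4.739, the last of these dim. OsNLP1, a transcription factor of the group that acts in nitrate signalling, read 11.24, 9.43 and 9.15 and rose by 1.95 (SE 0.27, adjusted p = 0.0323). OsNLP5 read 9.03, 10.39 and 10.10, below both (change -1.22, SE 0.27), and OsNLP4 10.76, 9.56 and 9.87. OsBT, whose Arabidopsis relatives limit nitrate uptake, read 11.48, 13.02 and 12.63 (change -1.34, SE 0.25, adjusted p = 0.0622). In all, 1 of 13 tested regulators rose and 2 fell, while 1 lay above and 4 below both supplemented arrays (median change -0.36). The shares over all tested genes were 1.67% and 1.24% by the test, and 6.21% above and 6.13% below both.

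Amino acid carriers of the AAP family differed from each other. OsAAP1 read 12.84, 11.07 and 10.94 and rose by 1.83 (SE 0.22, limma adjusted p = 0.0252). The carrier at Os01g0878700 read 14.23, 12.21 and 12.42 and rose by 1.92 (SE 0.22, adjusted p = 0.0228), while the one at Os01g0878400 read 8.29, 9.64 and 10.16 (change -1.61, SE 0.32). These loci lay on opposite sides of the pair, the second without passing the test. OsLHT1, an amino acid uptake carrier of the root, read 13.36, 13.54 and 13.22, within the pair. Among all tested genes 1.67% rose and 1.24% fell. Of the 6 tested carriers 2 rose and none fell (median change 0.16).

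Glutaredoxins are small proteins that reduce disulfide bonds, and some members in Arabidopsis respond to nitrate. They were taken as a family after their values had been seen. Of 17 tested glutaredoxins 1 rose and 3 fell, and 2 lay above and 4 below both supplemented arrays, with a median change of 0.03. Among all tested genes 1.67% rose and 1.24% fell, while 6.21% lay above and 6.13% below both. GRXC1 (Os01g0368900) read 6.17, 11.87 and 11.77 and fell by 5.65 (SE 0.25, limma adjusted p = 0.00337), or 50.0-fold. GRXC15 read 8.47, 10.83 and 11.08 and fell by 2.49 (SE 0.26, adjusted p = 0.0187), and GRXC14 read 2.65, 7.39 and 7.19, a change of -2.16 or lower (adjusted p = 0.0382). GRXC14 and GRXC15 are adjacent in the reference gene order, and the next tested gene, Os12g0538800 (8.60, 9.95 and 10.39), also lay below both arrays. GRXC7 went against these, reading 13.30, 10.74 and 10.72 and rising by 2.58 (SE 0.22, adjusted p = 0.0138). GRXC10 read 1.43, 5.89 and 7.83, a change of -1.73 or lower (adjusted p = 0.0857), with 1.94 between the supplemented arrays.

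Genes of the phenylpropanoid pathway, which turns phenylalanine into lignin and flavonoid precursors, lay higher without nitrogen. Of 13 tested genes 5 rose and none fell, and 8 lay above both supplemented arrays and none below (median change 1.2). By comparison, 1.67% of all tested genes rose and 6.21% lay above both. OsHCT4 (Os06g0185500), a hydroxycinnamoyl transferase, read 14.16, 10.05 and 9.81 and rose by 4.23 (SE 0.24, limma adjusted p = 0.00481), or 18.8-fold. Phenylalanine ammonia-lyase is the entry enzyme and releases ammonium from phenylalanine. Of its 6 genes OsPAL4 read 13.29, 11.55 and 11.04 and rose by 2.0 (SE 0.28, adjusted p = 0.0331). OsPAL2 (15.25, 13.77 and 13.57) rose by 1.58 and OsPAL5 (12.77, 11.23 and 11.43) by 1.44. OsPAL3 (9.48, 10.83 and 10.36) and OsPAL6 (9.28, 11.40 and 9.65) were lowest without nitrogen but did not pass, so the family did not move as a whole. The ligase Os4CL3 read 12.51, 10.91 and 10.82 and rose by 1.65 (SE 0.22, adjusted p = 0.0309). OsC4H, the second enzyme of the pathway, read 13.77, 11.51 and 12.23 (change 1.91, SE 0.33, adjusted p = 0.0535) and the last monolignol enzyme OsCAD2 15.84, 14.61 and 14.68 (change 1.2, SE 0.21, adjusted p = 0.0535). OsCHS1, the chalcone synthase that opens the flavonoid branch, read 11.52, 8.56 and 8.41 and rose by 3.04 (SE 0.26, adjusted p = 0.0146), though other tested probe sets assigned to it changed by 0.65 and 1.44 without passing.

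**Figure D3:**
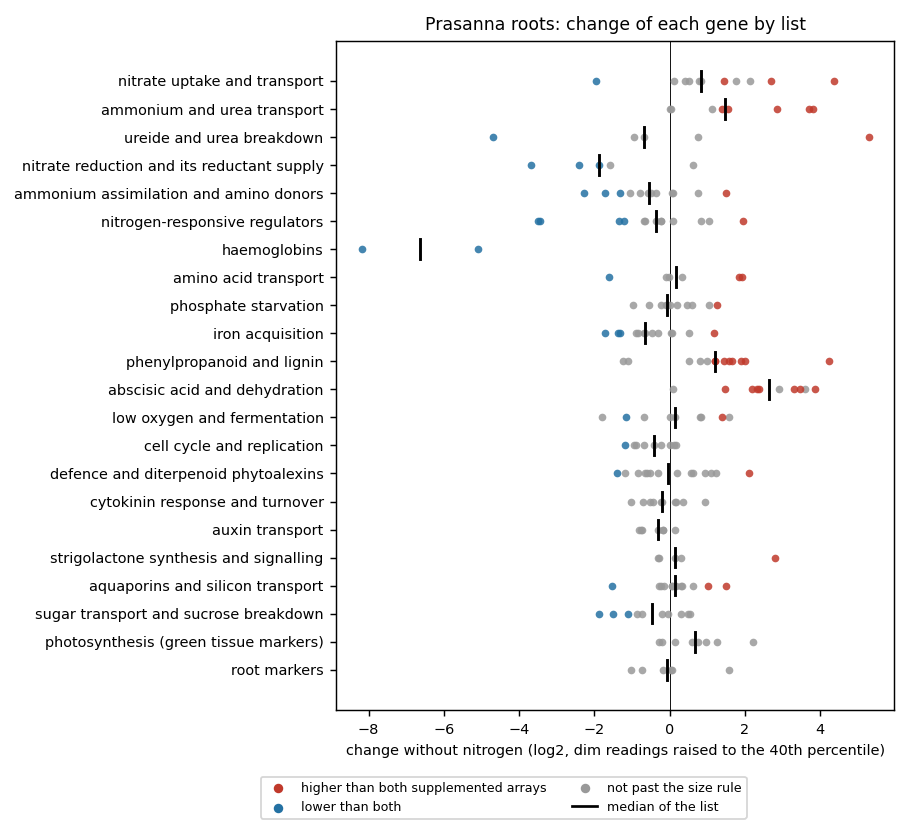
Change without nitrogen (log2, with dim readings raised to the 40th percentile) of each tested gene in 22 lists; red points lie above both supplemented arrays, blue points below both, grey points are not past the size rule, and black bars are medians. The abscisic acid and phenylpropanoid lists have red points and no blue ones, and the nitrate reduction and haemoglobin lists blue and no red.

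Genes of the response to abscisic acid, the hormone of water shortage, were also higher. Of 10 tested genes 6 rose and none fell, and 7 lay above both supplemented arrays (median change 2.74, or 2.63 with dim readings raised to the 40th percentile). Over all tested genes these shares were 1.67% for a rise and 6.21% for a place above both. OsPP108 (Os09g0325700), a protein phosphatase 2C, read 12.07, 8.59 and 7.85 and rose by 3.85 (SE 0.37, limma adjusted p = 0.0162). Phosphatases of this kind hold the abscisic acid pathway down and are themselves induced by it. The protective proteins OsLEA3 (13.35, 10.40 and 9.67) and RAB16D (10.80, 6.75 and 7.94) rose by 3.31 (SE 0.34, adjusted p = 0.0187) and 3.46 (SE 0.52, adjusted p = 0.0382). RAB16B (10.50, 8.13 and 5.67) and RAB16C (12.47, 10.75 and 8.40), dehydrins of the same cluster, were highest without nitrogen, but their supplemented arrays differed by over 2 log2 and they did not pass. The transcription factors OsbZIP46 (11.20, 8.9 and 9.14), OsHox22 (11.85, 9.84 and 9.21) and OsbZIP23 (13.57, 12.25 and 11.93) rose by 2.18, 2.32 and 1.48. OsABI5 (5.74, 6.18 and 5.11) lay within the pair.

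Protein phosphatases 2C and dehydrins were also counted as families, chosen after their values had been seen. Of 52 tested protein phosphatases 2C, 3 rose and none fell, and 5 lay above both supplemented arrays (median change 0.16). These 5 are 9.62% of the family, near the 6.21% of all tested genes. Beside OsPP108 these were OsPP2C30 (10.67, 8.03 and 7.21), which rose by 3.05 (SE 0.41, limma adjusted p = 0.0322), OsPP2C09 (13.17, 11.03 and 10.29), which rose by 2.51 (SE 0.34, adjusted p = 0.0323), and OsPP2C49 and OsPP2C51, which did not pass. Of 6 tested genes named as dehydrins or late embryogenesis abundant proteins, among them OsLEA3 and the RAB16 genes above, 3 rose and none fell. Above both lay 4 (median change 3.25), which is 66.7% of the family, against 6.21% of all tested genes. Dehydrin OsDhn1 read 14.75, 12.74 and 12.91 and rose by 1.93 (SE 0.21, adjusted p = 0.0224). OsLEA17 read 10.55, 8.17 and 6.55 and did not pass (change 3.19, SE 0.65, adjusted p = 0.075).

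Heat shock factors are transcription factors that switch on chaperones, and this family too was chosen after its values had been seen. Of 22 tested factors 4 rose and none fell, and 7 lay above and 1 below both supplemented arrays (median change 0.30). These 7 are 31.8% of the family, against 6.21% of all tested genes, of which 1.67% rose. OsHsf-16 (Os06g0553100) read 13.12, 9.10 and 9.49 and rose by 3.83 (SE 0.27, limma adjusted p = 0.0109). OsHsf-05 read 12.13, 10.11 and 10.10 and rose by 2.02 (SE 0.23, adjusted p = 0.0228), and OsHsf-02 read 10.50, 8.71 and 8.33 and rose by 1.98 (SE 0.30, adjusted p = 0.0397). The brightest probe set of OsHsf-11 rose by 3.2 (10.02, 6.69 and 6.95), and its other tested probe sets each rest on a reading below the 40th percentile. One of these went the other way, below both supplemented arrays (4.015, 6.081 and 5.273), with the dim reading without nitrogen. Another was highest without nitrogen (6.761, 2.466 and 5.409). Of 17 small heat shock proteins 1 rose and none fell, and 3 lay above both, 17.6% of the family (median change 0.87). The one that rose, OsHsp18.6, read 9.96, 6.54 and 6.39 and rose by 3.50 (SE 0.36, limma adjusted p = 0.0187).

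**Figure D4:**
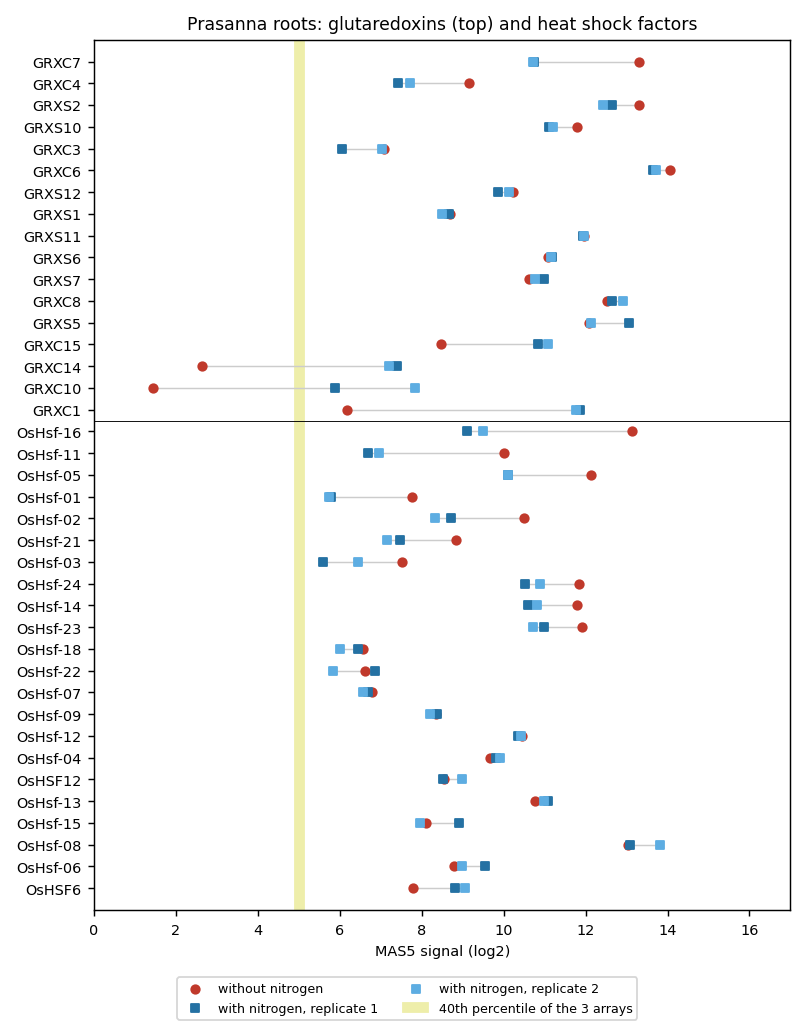
Log2 MAS5 signal of the 17 tested glutaredoxins (upper block) and 22 tested heat shock factors (lower block) on the array without nitrogen (red circle) and the 2 supplemented arrays (blue squares), ordered by change within each block; the band marks the 40th percentiles. GRXC1 lies at 6.17 without nitrogen and 11.87 and 11.77 with it, and OsHsf-16 at 13.12 without and 9.10 and 9.49 with it.

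Iron acquisition was mixed. Of 13 tested genes none rose and 2 fell, and 1 lay above and 3 below both supplemented arrays (median change -0.67). Among all tested genes 1.24% fell, and 6.21% lay above and 6.13% below both. OsNRAMP1, a metal transporter, read 12.82, 14.10 and 14.29 and fell by 1.37 (SE 0.22, limma adjusted p = 0.0427). OsYSL2, which carries metals bound to nicotianamine, read 11.57, 13.02 and 13.58 and fell by 1.73 (SE 0.29, adjusted p = 0.0492). Against these, the manganese and cadmium transporter OsNRAMP5 read 13.87, 12.65 and 12.75 (change 1.16, SE 0.21, adjusted p = 0.057). The bright genes OsNAS1 (16.49, 16.50 and 16.40), a nicotianamine synthase, and OsIRT1 (14.91, 14.35 and 14.45), the iron transporter of the root surface, differed from the pair by less than 1 log2.

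Carbon and water genes are set beside all tested genes, of which 1.67% rose and 1.24% fell. Of all tested genes 6.21% lay above and 6.13% below both supplemented arrays. Of 10 tested genes of sugar transport and sucrose breakdown none passed the test, and 3 lay below both supplemented arrays: OsCIN1, OsCIN2 and the sugar exporter OsSWEET14 (8.92, 11.40 and 10.20). The reference table calls Os04g0664900 OsCIN5, a cell wall invertase name. It read 8.45, 12.16 and 12.08 and fell by 3.67 (SE 0.23, limma adjusted p = 0.00786). Its neighbours OsCIN6 (5.59, 7.84 and 7.44) and OsAHT1 (3.01, 7.48 and 6.41) also lay below both arrays. The list of aquaporins and silicon transporters had 2 genes above and 1 below both supplemented arrays. Of 13 aquaporins and silicon transporters 1 rose, the tonoplast aquaporin OsTIP4.1 (13.47, 12.17 and 11.78), by 1.5 (SE 0.25, adjusted p = 0.0493). OsTIP2.2 read 13.24, 14.55 and 15.01 (change -1.55, SE 0.26, adjusted p = 0.051), and the silicon exporter OsLsi2 read 14.61, 13.59 and 13.57 (change 1.03, SE 0.20).

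Other lists gave no limma calls. None of 13 phosphate starvation, 10 cytokinin, 7 auxin transport, 14 defence and diterpenoid, 9 low oxygen, 9 cell cycle, 8 photosynthesis or 5 strigolactone genes passed the test. Their median changes lay between -0.41 and 0.67, against -0.045 over all tested genes. Among them D10, a strigolactone biosynthesis enzyme, read 7.97, 4.81 and 5.29 and was at least 2.79 higher without nitrogen (limma adjusted p = 0.0857). OsDPF, a regulator of diterpenoid phytoalexins, read 11.60, 9.89 and 9.08 (change 2.12, SE 0.38, adjusted p = 0.0563). The sucrose synthase OsSUS2 read 13.20, 14.34 and 14.41 (change -1.17, SE 0.21, adjusted p = 0.055).

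Among the remaining leading genes with a name, the gains were XBOS36 and OsWBC5, and the losses fell on several kinds of protein. XBOS36, of a family of ubiquitin ligases, read 11.18, 7.41 and 7.84 and rose by 3.56 (SE 0.32, limma adjusted p = 0.015). OsWBC5, of a family of ABC transporters, read 10.39, 7.64 and 7.50 and rose by 2.82 (SE 0.30, adjusted p = 0.0203). The kinase OsCIPK10, of the family that works with calcium sensors, read 7.87, 11.38 and 11.27 and fell by 3.46 (SE 0.24, adjusted p = 0.0109). The beta-glucosidase Os12bglu38 read 6.01, 9.69 and 9.02 and fell by 3.35 (SE 0.39, adjusted p = 0.0245), and the chitinase Cht1 read 4.1, 9.65 and 8.62, a change of -4.00 or lower (adjusted p = 0.0194). OsRDR4, IMCE, OsWGP1 and OsTDL1A read between 2.19 and 3.75 without nitrogen, below the 40th percentile, and did not pass the test.

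**Figure D5:**
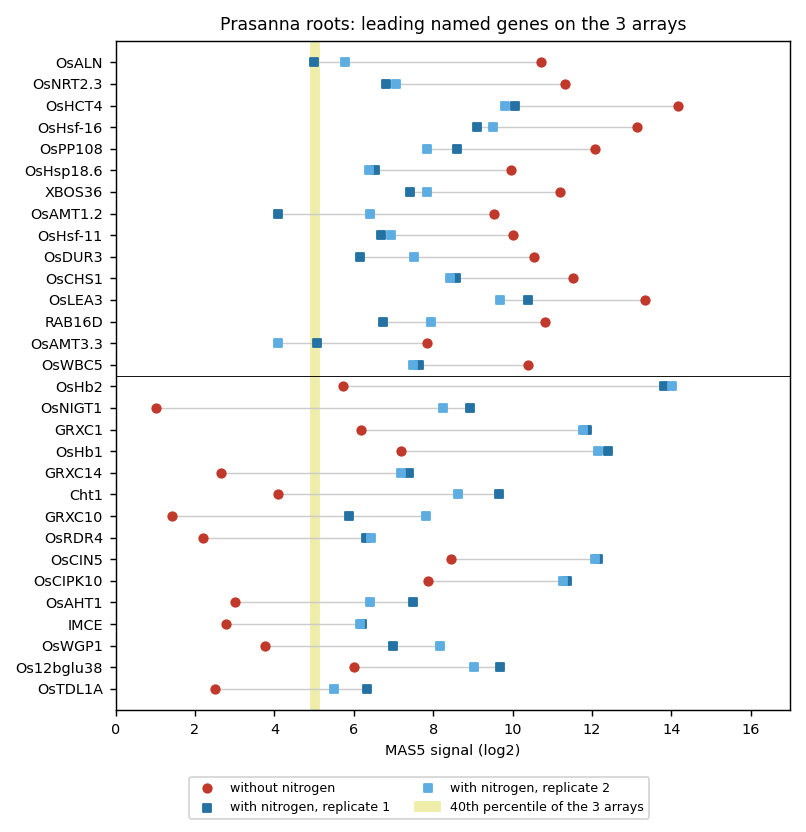
Log2 MAS5 signal of the 15 named genes furthest above (upper block) and the 15 furthest below (lower block) both supplemented arrays, without nitrogen (red circle) and with it (blue squares); the band marks the 40th percentiles. Among the losses, 9 red circles lie left of the band, and OsHb2 moves from 14.02 and 13.81 with nitrogen to 5.73 without.

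Large differences were also seen in genes for which no name is printed, chosen after their values were seen. Os12g0555100 read 15.07, 7.63 and 7.25 and rose by 7.63 (SE 0.28, limma adjusted p = 0.00179), the largest gain over both supplemented arrays among the tested genes. In the reference order it lies between RSOsPR10 (13.51, 13.42 and 13.19) and PBZ1 (14.95, 14.18 and 13.50), which did not pass. Os05g0568800 read 13.45, 8.68 and 8.71 and rose by 4.75 (SE 0.24, adjusted p = 0.00356). On the other side Os01g0860601 read 7.89, 14.69 and 14.08 and fell by 6.50 (SE 0.30, adjusted p = 0.00337), and Os07g0638400 read 9.33, 15.70 and 15.16 and fell by 6.10 (SE 0.28, adjusted p = 0.00337).

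Genes past the size rule sometimes lay side by side. Among 19663 pairs of neighbouring tested genes, both were past it in 351 (1.79%), and 230 of these pairs (65.5%) had the same direction. Of the tested genes 12.3% were past it, so genes placed with no regard to each other would give 1.52% of pairs, and nothing is read from the number of pairs. Runs of at least 3 such neighbours numbered 25, of which 13 were higher and 12 lower. The longest, on chromosome 4, held 6 genes from Os04g0585700 (12.03, 8.43 and 8.31) to Os04g0586500 (8.46, 7.38 and 7.13), all higher without nitrogen. Neighbours can be duplicates that share probes, so such runs are not independent genes. No such level was worked out for the shared direction or the number of runs, so nothing is read from these either. OsHb2 heads a run with the metal transporter gene OsMTP4 (8.94, 10.18 and 10.30) and Os03g0226600 (9.24, 10.27 and 10.30), whose differences were far smaller than its own.

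Set beside Varadan, no difference of response could be shown. The test of the difference over all 6 arrays called 0 probe sets by limma (1796 at an unadjusted p below 0.05, smallest adjusted p = 0.946). In Varadan OsHb2 read 8.33 without nitrogen and 5.55 and 13.85 with it, and OsNRT2.3 read 12.49, 12.29 and 7.78. For these genes the supplemented Varadan arrays differed from each other about as much as the Prasanna groups did, and the deposited tables disagree on which of the first 2 Varadan arrays is which. The supplemented Prasanna arrays showed no such split for either gene.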

How the data were processed

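RNA from roots was labelled with biotin and read on Affymetrix rice arrays, 1 per sample. The deposited log2 values are MAS5 signals on the log2 scale, per the submitters' processing notes and the file headers; no MAS5 version or scanner setting is given in these sources. In the deposited series matrix these signals stand as linear intensity, as a comparison with the log2 table shows. Every array had been scaled before deposit to 1 mean (499.85 to 499.87 after trimming 2% at each end), which hides any change common to most genes. MAS5 treats each array on its own, which leaves dim signals noisy. The Prasanna columns of both deposited tables were equal within rounding, and 2 Varadan columns were exchanged between them.

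Of 57381 probe sets 187 controls were left out, and the 34316 whose mean over the 3 Prasanna arrays reached the 40th percentile were tested; 27271 of these have 1 locus in the platform annotation. Changes were tested with limma 3.58.1 in R 4.3.3 (lmFit, eBayes with a trend), two-sided, with Benjamini-Hochberg adjustment at 0.05. All adjusted p-values of genes are from limma. The fit takes the spread of the lone array to be that of the supplemented pair. The difference between varieties was the interaction in a fit of 4 group means over 6 arrays. The script was tested on simulated data. A gene with several probe sets is given by its brightest over the 3 arrays.

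Named genes are the 15 furthest above and the 15 furthest below both supplemented arrays that have a printed name in the reference table (assembly ASM3414082v1, in which 30586 probe sets found an entry), members of 22 lists (237 genes, 203 with a probe set of their own), and genes at the edge of the size rule. The arrays on the higher side had to be above the 40th percentile. For 8 list genes the table contradicts the locus, and they were left out. The loci of 65 list genes were set by hand, since the table holds no matching name (among them OsNiR, OsNR2, OsNRT1.1B, OsUPS1, OsRFNR1, OsLBD38, OsBT, OsAAP1, OsbZIP46, OsC4H and the OsPAL genes), and their identity was not checked. Some names in the table are held by more than 1 locus. Probe sets of OsNRT2.3, OsNRT2.2, OsNRT1.1B, OsTIP2.2, OsSWEET14, XBOS36, OsHsf-11, OsRDR4 and D10 are of a type that can also bind related sequences. Those of OsHCT4, OsDUR3, OsLEA3, OsLBD38, OsNPF2.4, OsHsp18.6, OsAHT1 and OsMTP4, among others, are of another type. Its probes are shared by several transcripts, which can be those of related genes. The members and lists were chosen with earlier results of these data known. No detection calls were used, and level alone set what counts as background. The number of arrays limits the precision. No genome sequence was used here. Alternatives changed the table, the arrays in the fit, the variance model, the filter, the scaling, a floor for dim readings, the size asked for and the probe sets of a gene.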

Additional observations from a re-analysis of the deposited data

Results flagged for a closer look

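In 7 genes named above, the array without nitrogen lay below both supplemented arrays in Prasanna and above both in Varadan. In Prasanna OsNIA1, a nitrate reductase, lay 1.87 log2 below the nearer supplemented array (-1.87), against 0.67 in Varadan, and the nitrate reductase OsNR2 gave -1.02 against 1.35. The metal transporter OsYSL2 gave -1.44 against 0.17 and the heat shock factor OsHSF6 -1.02 against 0.31. The rest were dim in Prasanna without nitrogen, where only a limit on the change from the supplemented mean can be given: -1.24 or lower for OsRDR4, -2.45 or lower for OsWGP1 and -0.78 or lower for OsTDL1A. In Varadan they lay 0.06, 0.18 and 0.47 above the nearer supplemented array. In the test of the difference between varieties no probe set passed (limma, smallest adjusted p = 0.946), so none of these differences is established. The deposited tables disagree on which Varadan array is the one without nitrogen, so the direction in Varadan is unsettled. No group had 4 samples, so no sample could be tested as standing apart from its group.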

How the results depend on the processing

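The limma calls depended on the fit. In place of 424 that rose and 349 that fell, there were 0 and 0 with all 6 arrays and 0 and 0 without the variance trend. With either supplemented Prasanna array left out there were 0 to 0 in each direction, but the spread then came from the Varadan arrays alone, so this says nothing of how the calls rest on 1 array. With all 6 arrays but Varadan replicate 1 with nitrogen there were 160 and 144, and all 304 were among the 773; of the 56 named genes that passed, 20 no longer did. The fit without that Varadan array holds 1 Varadan array in each group. Its spread came from the supplemented Prasanna pair alone, as in the main fit. It therefore says nothing of how the calls hold with further arrays in the estimate of spread. The limma counts were 696 and 586 with a 60th percentile filter, and 1443 and 1307 with dim readings raised to the 40th percentile. They stayed within 1.5 times with the series matrix, the robust variance, no filter, and quantile or median scaling, where median centring gave 409 and 518. By the size rule, 2052 higher and 2530 lower became 5742 and 5328 with no filter, 1323 and 1341 with the 60th percentile filter, and 386 and 727 when 2 log2 were asked for. Raising dim readings left 2088 and 1686. With 1 supplemented array left out the size rule has no pair to compare with and counts grew to between 4595 and 4864 higher and between 3701 and 4297 lower. Genes whose sign turned had all lain close to the mean of the pair. Under quantile scaling these were OsABI5 (-0.02), OsLsi1 (-0.10), OsNAS1 (-0.12) and OsRCc3 (-0.14), and under median centring the same genes at -0.01, -0.06, -0.07 and -0.09. With replicate 1 or replicate 2 left out the changes spanned -0.44 to 0.64 for OsABI5, -0.07 to 0.16 for OsLsi1, -0.01 to 0.09 for OsNAS1, -0.05 to 0.10 for OsRCc3, -0.11 to 0.11 for OsAMT3.2 and -0.18 to 0.14 for OsLHT1. The cause was not tested. The difference between varieties gave 0 calls in each fit tried. No paired analysis was possible because only 1 Prasanna array lacks nitrogen, so the groups share fewer than 2 replicate numbers. Pair differences had a median of 0.686 log2 among the dimmest of 3 equal groups of tested probe sets and 0.205 among the brightest, so signal over background limits what can be said of dim genes.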
